A study of Homo sapiens with 8 samples.

Results

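The accessible sites inside very long genes were examined in U2OS cells, a human osteosarcoma line, with chromatin accessibility measured by ATAC-seq, which marks open DNA by the adapters that a transposase, Tn5, can place there. A member was a region, that is a distinct interval of a library's peak list, whose midpoint lay inside a protein-coding gene longer than 500 kb and more than 10 kb from the transcription start site (TSS) of that gene. The rule used gene length and position only, and found 96783 of the 1435500 regions of the 8 lists, or 6.74%. They lay in 322 of 19970 protein-coding genes, with a median length of 728 kb and a longest of 2474 kb (RBFOX1), and the gene bodies beyond 10 kb covered 265 Mb or 9.10% of the genome.

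The cells were wild type (WT) or carried a disruption of the gene for the histone methyltransferase ASH1L (ASH1L-/-), made with CRISPR/Cas9 and taken from isolated colonies. Each genotype was either left without UV (unirradiated) or harvested 3 h after UV-C light at 20 J/m2, with 2 libraries in each of the 4 groups, which the titles name as biological replicates. All cells, with and without UV, were treated with DNase before harvest to remove the DNA of dead cells. The colony and the genotype cannot be told apart, because every ASH1L-/- library is compared with the same WT line. Of 5 genes of mesenchymal cells, RUNX2, COL1A1 and VIM had a region within 1 kb of a TSS in 8 of 8 libraries, COL1A2 in 7 and TWIST1 in 2. Of 4 genes of other cell types, CD3E had none, PTPRC and ALB had one in 1 library each, whereas EPCAM had one in 8.

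Genes of this length are mostly introns. Many encode adhesion molecules, ion channels and synaptic proteins of neurons, and several coincide with common fragile sites, where chromosomes break under replication stress. RNA polymerase needs many hours to cross them, and UV lesions in the template strand stop it, so transcription after UV is lost progressively with distance from the start. Regions of open chromatin deep in such genes are mainly enhancers, insulators and internal promoters, and AP-1, a dimer of FOS and JUN proteins induced by stress, TEAD and RUNX proteins are among the factors that bind enhancers in mesenchymal cells.

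Individual sites were followed by joining the regions of all 8 lists into union sites, and 201 bases around the summit show what kinds of sequence are open. The first set holds distal sites with a region in all 8 libraries, taken from those whose fold enrichment ranked highest within the lists. The second set was gained after UV, each of the 4 UV libraries having a region there and the unirradiated ones none, and the third set was lost after UV. The last set separated the genotypes. The windows printed are only some of the top-ranked sites of each set, and the motif matches of others are given below. Sequences are the forward strand of hg38, and capitals mark matches to AP-1 (TGANTCA), TEAD (GGAATG, or CATTCC on the other strand) and RUNX (TGTGGT, or ACCACA on the other strand).
CAMTA1 intron, in all 8 libraries: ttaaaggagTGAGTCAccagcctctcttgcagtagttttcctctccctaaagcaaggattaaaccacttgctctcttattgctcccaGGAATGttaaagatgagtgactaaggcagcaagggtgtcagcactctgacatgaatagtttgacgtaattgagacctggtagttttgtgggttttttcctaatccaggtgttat
OPCML intron, in all 8 libraries: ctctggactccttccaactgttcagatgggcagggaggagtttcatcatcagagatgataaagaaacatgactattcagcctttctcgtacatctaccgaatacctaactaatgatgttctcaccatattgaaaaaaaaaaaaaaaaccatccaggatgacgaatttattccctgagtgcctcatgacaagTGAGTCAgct
CNTN4 intron, gained after UV: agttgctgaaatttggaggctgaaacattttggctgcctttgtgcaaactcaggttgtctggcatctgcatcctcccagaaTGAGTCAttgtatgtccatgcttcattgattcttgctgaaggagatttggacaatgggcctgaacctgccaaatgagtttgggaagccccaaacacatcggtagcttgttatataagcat
ROBO1 intron, gained after UV: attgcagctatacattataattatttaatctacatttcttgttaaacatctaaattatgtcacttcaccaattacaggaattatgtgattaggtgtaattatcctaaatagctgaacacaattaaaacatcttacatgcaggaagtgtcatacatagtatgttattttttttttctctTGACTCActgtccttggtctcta
FHIT intron, gained after UV: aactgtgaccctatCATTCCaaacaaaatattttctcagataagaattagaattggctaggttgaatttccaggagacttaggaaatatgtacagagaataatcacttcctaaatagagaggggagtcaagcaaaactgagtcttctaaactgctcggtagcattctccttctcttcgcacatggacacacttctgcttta
SEMA3A intron, lost after UV: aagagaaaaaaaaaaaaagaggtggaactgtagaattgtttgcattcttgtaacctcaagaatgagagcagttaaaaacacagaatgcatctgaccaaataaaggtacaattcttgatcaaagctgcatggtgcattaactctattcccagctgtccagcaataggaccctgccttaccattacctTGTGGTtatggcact
PRKG1 intron, lost after UV: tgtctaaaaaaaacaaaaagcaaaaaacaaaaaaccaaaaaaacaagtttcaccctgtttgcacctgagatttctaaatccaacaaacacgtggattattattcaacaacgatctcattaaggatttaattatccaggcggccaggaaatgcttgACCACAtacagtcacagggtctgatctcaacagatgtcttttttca
KIF26B intron, in the 4 ASH1L-/- libraries: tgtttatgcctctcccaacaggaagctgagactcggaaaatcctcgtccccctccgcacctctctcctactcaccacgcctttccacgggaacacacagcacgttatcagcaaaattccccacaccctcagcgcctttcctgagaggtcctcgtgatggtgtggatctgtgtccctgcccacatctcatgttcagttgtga
GPC6 intron, in the 4 WT libraries: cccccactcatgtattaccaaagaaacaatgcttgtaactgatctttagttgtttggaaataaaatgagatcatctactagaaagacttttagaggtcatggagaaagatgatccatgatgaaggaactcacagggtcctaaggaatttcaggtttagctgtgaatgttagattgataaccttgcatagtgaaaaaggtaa

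The CAMTA1 window, chr1:7401966-7402166, lies 617 kb into the gene of a calmodulin-binding transcription activator, and the OPCML window, chr11:132632817-132633017, lies 900 kb into the gene of a neuronal adhesion molecule. Both are in introns of every annotated isoform. At the CAMTA1 site the fold enrichment, the ratio of the read pileup at the summit to the local background of the same library, was 24.0 and 28.7 in unirradiated WT cells and 22.9 and 25.6 in WT cells after UV. It was 22.7 and 24.6 in unirradiated ASH1L-/- cells and 24.1 and 23.1 in ASH1L-/- cells after UV. Fold enrichments are not normalised between libraries, so each was also ranked within its own list, and the CAMTA1 site lay above the percentile 99.8 in every library.

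Member regions were spread more thinly than regions in shorter genes, and their number did not separate UV or genotype. They numbered 11973 and 13351 in unirradiated WT cells and 10297 and 10837 in WT cells after UV, and 15705 and 10580 in unirradiated ASH1L-/- cells and 10719 and 13575 in ASH1L-/- cells after UV. The lists themselves held between 158198 and 220783 regions. The largest number came from replicate 1 of the unirradiated ASH1L-/- cells, the deepest library, and the groups overlapped. The lowest background pileup solved for its regions was 5.87 reads. The other 7 libraries had a depth between 1.39 and 2.81 on the same scale.

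As a share of the list, members made up 6.70% and 7.04% in unirradiated WT cells and 6.37% and 6.49% in WT cells after UV. In ASH1L-/- cells the share was 7.11% and 6.69% without UV and 6.48% and 6.81% after UV. The share was lower after UV in both genotypes, with means of 6.54% ± 0.19 after UV and 6.89% ± 0.22 without (SD, n = 4 and 4), but replicate 2 of the irradiated ASH1L-/- cells lay above the lower unirradiated libraries. The difference of -0.346 percentage points did not pass (p = 0.0857, adjusted p = 0.791, exact permutation test, two-sided, 70 assignments, smallest attainable p 0.0286). It was -0.439 points within WT and -0.253 points within ASH1L-/- cells, and -0.152 points when only regions with a q-value at or below 0.05 were counted.

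**Figure D1:**
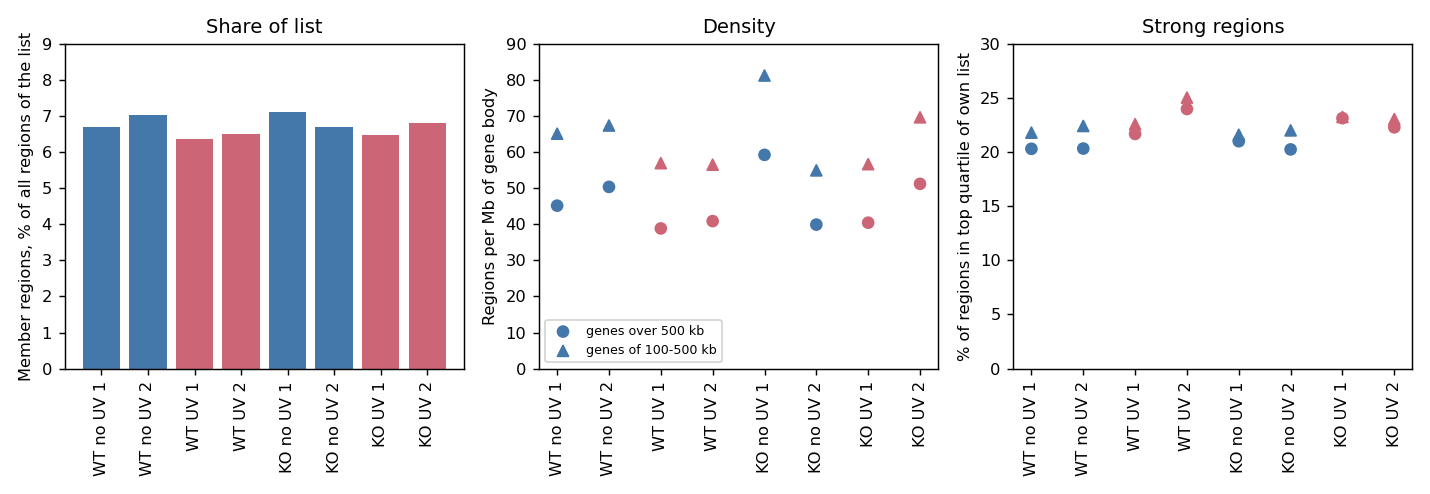
Members in the 8 libraries (blue without UV, red after UV). The left panel gives the member share of each list in percent, the middle panel the regions per Mb in genes over 500 kb (circles) and in genes of 100 to 500 kb (triangles), and the right panel the percentage of regions in the top quartile of their own list with the same symbols. Circles lie below triangles in every library of the middle panel, and in the right panel the 4 UV circles lie between 21.7% and 24.0%, above the unirradiated ones between 20.3% and 21.0%.

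Density was compared with the bodies of 3339 protein-coding genes of 100 to 500 kb, also beyond 10 kb from the TSS, which held 303387 regions. Members occurred at 38.9 to 59.3 per Mb, and regions of the shorter genes at 54.9 to 81.2 per Mb. The log2 density ratio was -0.48 ± 0.04 (SD, n = 8), lower in long genes in 8 of 8 libraries (p = 0.0078, adjusted p = 0.0117, exact sign-flip permutation test, two-sided, the smallest p that 8 libraries allow). Regions within 1 kb of an annotated TSS of any protein-coding gene can lie at internal or alternative promoters or at those of other genes, which were not told apart. They made up 3.68% to 5.11% of members and 8.39% to 10.06% of regions in the shorter genes. Their share was again lower in long genes in 8 of 8 libraries (mean difference -4.89 percentage points ± 0.24, SD, adjusted p = 0.0117, same exact test). The density ratio itself did not differ by UV (-0.02, p = 0.514) or genotype (0.03, p = 0.371, exact permutation test, n = 4 and 4).

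The strength of members was described by the percentile of fold enrichment within the own list. The median percentile was 49.9 and 46.7 in unirradiated WT cells, 47.2 and 48.7 in WT cells after UV, 47.4 and 47.7 in unirradiated ASH1L-/- cells and 49.5 and 48.0 in ASH1L-/- cells after UV. The groups overlapped, with a difference of 0.40 for UV (p = 0.629) and 0.06 for genotype (p = 0.971, exact permutation test, n = 4 and 4). A median percentile 1.29 ± 1.51 (SD, n = 8) above that of the shorter genes was higher in 5 of 8 libraries and did not pass (adjusted p = 0.0625, exact sign-flip permutation test). Regions with the same fold enrichment share a percentile, so medians can tie. Both medians were 46.7 in replicate 2 of the unirradiated WT cells and 48.0 in replicate 2 of the irradiated ASH1L-/- cells.

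The upper end of the distribution was looked at after these values were seen. The share of members in the top quartile of their list was 20.3% and 20.3% in unirradiated WT cells, 21.7% and 24.0% in WT cells after UV, 21.0% and 20.3% in unirradiated ASH1L-/- cells and 23.1% and 22.3% in ASH1L-/- cells after UV. All 4 UV libraries lay above all 4 others, with means of 22.8% ± 1.01 and 20.5% ± 0.357 (SD), a difference of 2.30 percentage points (p = 0.0286, the smallest these permutations can give, exact permutation test, two-sided, adjusted p = 0.171 over 18 tests). Shorter genes showed 1.52 points in the same direction (p = 0.0286, exact permutation test), and the excess in long genes of 0.780 points did not pass (p = 0.114, exact permutation test).

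Other properties of the lists moved with UV too. The median width of members was 220 to 252 bp without UV and 322 to 431 bp after UV, and the share of members with a q-value below 0.05 was 74.2% to 77.4% without UV and 84.0% to 93.5% after UV. Their part in the top quartile result was not tested.

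Along the gene, members were slightly more frequent towards the end. With each gene body cut into 10 equal bins from start to end, bin 10 held 11.9% ± 0.318 of members (SD, n = 8) and bin 3 held 9.09% ± 0.213. The median relative position was 0.527 and 0.523 in unirradiated WT cells, 0.521 and 0.525 in WT cells after UV, 0.513 and 0.525 in unirradiated ASH1L-/- cells and 0.524 and 0.521 in ASH1L-/- cells after UV, where 0 is the start and 1 the end. It did not move with UV (difference 0.00098, p = 0.886) or genotype (-0.0032, p = 0.343, exact permutation test, n = 4 and 4). In bin 1, where RNA polymerase arrives first, the share was 10.1% ± 0.341 without UV and 10.1% ± 0.311 after UV (SD, n = 4 each), and in bin 10 it was 12.02% ± 0.382 and 11.8% ± 0.262.

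**Figure D2:**
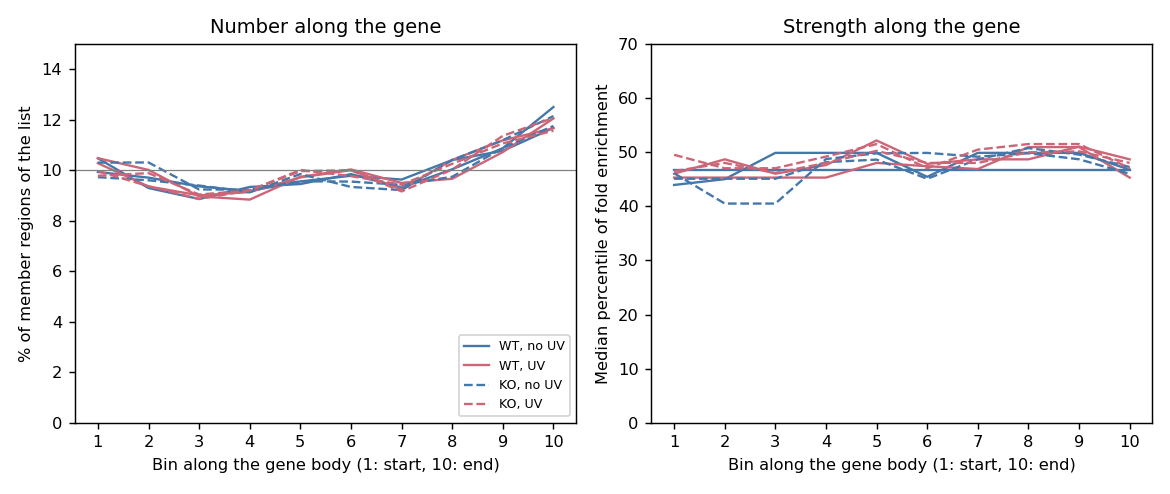
Members along the gene body in 10 equal bins from the start to the end, 1 line per library (blue without UV, red after UV, solid WT, dashed ASH1L-/-). The left panel gives the percentage of a list's members in each bin, with a grey line at 10%, and the right panel their median percentile of fold enrichment, from 0 to 100. The lines for UV and no UV run together and reach 11.9% on average in bin 10.

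The 322 genes differed widely in how open they were. Every long gene had a member in at least 1 library, and the mean over libraries ranged from 0.244 to 14.1 regions per 100 kb with a median of 4.004. The densest were ALDH1A2, the retinaldehyde dehydrogenase that makes retinoic acid, and SDK1, a synaptic adhesion molecule, each at 14.1 per 100 kb, followed by HIVEP3, a zinc finger protein, at 13.7, TRAPPC9, of a vesicle trafficking complex, at 13.3, and TTC28 and RGS6, a regulator of G protein signalling, at 13.03 and 12.98. SDK1 had between 109 and 193 regions per library. The sparsest were TENM1, a teneurin, at 0.244 and IL1RAPL1, a synaptic receptor, at 0.423, followed by the dystrophin gene DMD at 0.442 and TAFA1 at 0.494 per 100 kb. TENM1 had 0 to 5 regions per library, so that its differences between groups cannot be read. The first 3 of these lie on the X chromosome, where the 13 long genes had a median of 1.03 per 100 kb against 4.09 for autosomal ones.

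Genes next to the length limit varied on both sides of it. AFF2, just above it at 500.05 kb, had 1.99 regions per 100 kb, and SPOCK3 at 501.4 kb had 1.58. DIAPH3, just below it at 498.3 kb, had 0.358, and ITPR2 at 497.8 kb had 6.66.

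Single genes were compared by their share of the list, as regions per 100000 of the list, in the 319 long genes with a mean of at least 5 regions. A gene was called when the 4 libraries of one side all lay above the other 4, and a count of calls is read against the same count over all 4177 genes tested. After UV, 15 long genes were higher, 4.70% against a background of 3.02%, and 11 were lower, 3.45% against 3.14%. Over all tested genes, the counts for UV thus lay near the background. Among genes with at least 20 regions, 2.70% of 222 long genes were higher after UV and 4.95% lower. The shares of 517 genes of 500 kb or less were 3.09% and 2.32%. The lower calls were thus more frequent in long genes there, and the higher calls were not.

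Of the genes higher after UV, SPOCK3, an extracellular matrix proteoglycan, had 6 and 7 regions in unirradiated WT cells and 10 and 14 after UV, and 4 and 4 in unirradiated ASH1L-/- cells and 7 and 10 after UV. Its mean share was 2.09-fold higher after UV. DSCAM, an adhesion molecule of the nervous system, had 4 and 10 regions in unirradiated WT cells and 10 and 14 after UV, and 8 and 6 in unirradiated ASH1L-/- cells and 13 and 17 after UV, 2.08-fold higher in share. IL1RAPL2 was 1.94-fold higher, the glutamate receptor gene GRIK2 1.68-fold and FRMPD4, a postsynaptic scaffold gene, 1.58-fold. These 5 are sparse genes, with 4 to 27 regions per library.

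Genes lower after UV had more regions. EYS, a photoreceptor matrix gene, had 78 and 68 regions in unirradiated WT cells and 53 and 40 after UV, and 159 and 62 in unirradiated ASH1L-/- cells and 47 and 68 after UV. The unirradiated libraries had a 1.599-fold higher mean share, and the value of 159 came from the deepest library. CTNNA3, the alpha-T-catenin gene at a common fragile site, had 105 and 110 regions in unirradiated WT cells and 76 and 59 after UV, and 163 and 87 in unirradiated ASH1L-/- cells and 76 and 101 after UV, 1.37-fold higher in share without UV. RALYL, DPP10, of a potassium channel complex, and AGAP1, a regulator of endosomal trafficking, were 1.45-fold, 1.43-fold and 1.37-fold higher without UV.

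This contrast of sparse and dense genes ran through the whole set. Of the 15 genes higher after UV, 11 lay below the median density of the tested long genes, and of the 11 lower after UV, 1 did. Among the 159 genes below that median, the difference by UV had a median of 9.15% of the mean share and was positive in 100, and among the 160 others it had a median of -7.73% and was positive in 51. Across the 319 genes, which share the 8 libraries, the difference and log2 density had r = -0.435, given as a description.

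Genotype divided more long genes than UV did. In ASH1L-/- cells 31 were higher, 9.72% against a background of 4.79% of all genes tested, and 45 were lower, 14.1% against 6.87%. Genes of 100 to 500 kb showed 5.29% and 8.26%. Long genes carry more regions, a median of 31.4 per library against 12.3 in the tested genes of 100 to 500 kb, so genes with many regions were also compared. Among genes with at least 20 regions, 11.7% and 13.5% of 222 long genes were called higher and lower, against 8.51% and 6.77% of 517 genes of 500 kb or less.

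The gene of the membrane adaptor ankyrin-B, ANK2, stood highest in ASH1L-/- cells. It had 26 and 25 regions in unirradiated WT cells and 15 and 27 in WT cells after UV, but 101 and 52 in unirradiated ASH1L-/- cells and 70 and 78 after UV. The lowest ASH1L-/- library had nearly double the regions of the highest WT library, and the mean share was 3.01-fold higher. CADPS2, which primes secretory vesicles, CFAP299, and EXOC4, a subunit of the exocyst, were 2.85-fold, 2.68-fold and 2.14-fold higher. CFAP299 had 10 and 20 regions in unirradiated WT cells and 14 and 15 after UV, and 62 and 35 in unirradiated ASH1L-/- cells and 25 and 50 after UV.

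FGF14, which encodes a regulator of sodium channels, was 3.47-fold lower in share in ASH1L-/- cells, with 15 and 12 regions in unirradiated WT cells and 13 and 15 after UV, and 3 and 2 in unirradiated ASH1L-/- cells and 5 and 7 after UV. NLGN1, the neuroligin-1 gene, had 12 and 20 regions in unirradiated WT cells and 17 and 24 after UV, and 1 and 5 in unirradiated ASH1L-/- cells and 7 and 9 after UV, 3.41-fold lower. These are low counts, and no WT library overlapped an ASH1L-/- library. ZNF804B, HS6ST3, a heparan sulfate sulfotransferase, and ERC1, a scaffold of exocytosis sites, were 3.10-fold, 2.69-fold and 2.39-fold lower. ERC1 had the most regions of these 5, with 42 and 36 in unirradiated WT cells and 27 and 29 after UV, against 18 and 14 in unirradiated ASH1L-/- cells and 14 and 13 after UV.

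**Figure D3:**
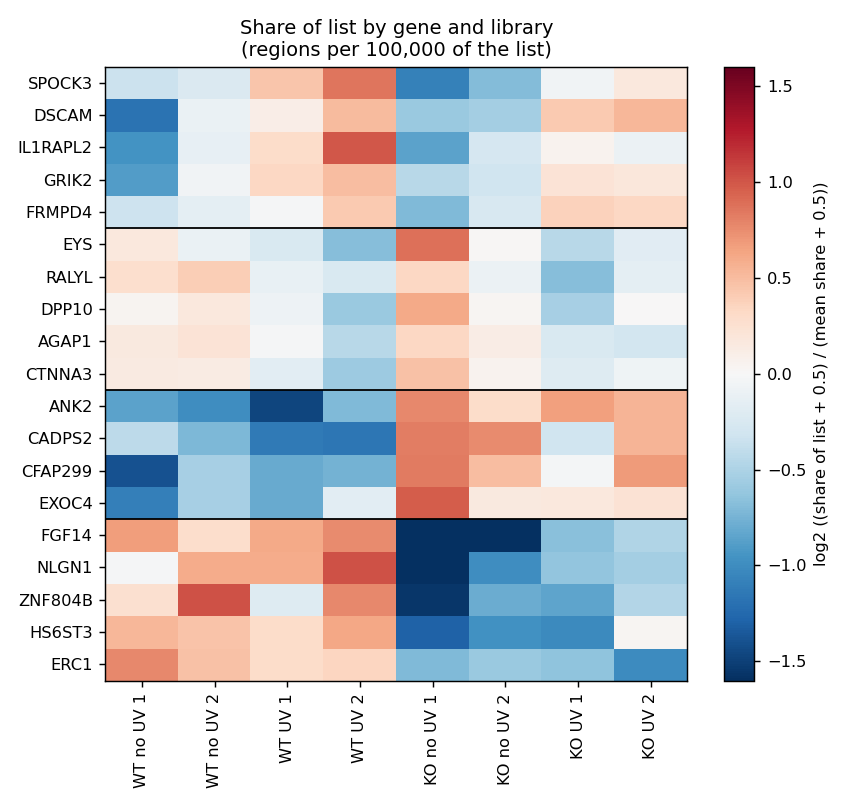
Share of list of 19 named genes in each library, as log2 of the share over the gene's mean share, in regions per 100000 of the list with 0.5 added to both. From the top, the blocks hold 5 genes higher after UV, 5 lower after UV, 4 higher in ASH1L-/- cells and 5 lower in ASH1L-/- cells, chosen for these differences. In the lower blocks the 4 ASH1L-/- values of each row lie all above or all below the 4 WT values, with ANK2 3.01-fold higher and FGF14 3.47-fold lower in mean share.

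Several chromosomes held runs of called genes. On chromosome 13, 6 of 10 tested long genes were lower in ASH1L-/- cells, from GPC5 at chr13:91398621-92873682 through GPC6, HS6ST3, FGF14 and NALF1 to MYO16 at chr13:108596152-109208005, and 1, ATP8A2, was higher. On chromosome 15, 5 of 9 were higher and none lower. On chromosome 7, 7 of 27 were lower and 4 higher, and in order along the chromosome ZNF804B, CDK14, RELN, LHFPL3 and IMMP2L were lower while CADPS2, PLXNA4, EXOC4 and PTPRN2, all further along, were higher. On chromosome 4, CFAP299, RASGEF1B and ANK2 were higher, with ARHGAP24 and STPG2 between them lower.

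The 1 Mb on each side of a gene was therefore measured in the same way, after the calls were known. Of the 45 genes lower in ASH1L-/- cells, flanks were lower in 43, with a median flank difference of -41.7% of the mean share. Of the 31 genes higher, flanks were higher in 30, with a median of 25.0%. Over all 319 tested long genes the median flank difference by genotype was 4.05%. Across the 319 long genes, gene and flank differences by genotype had r = 0.833, a description over genes that share libraries and sometimes flanks. For UV it was 0.718, with flanks of the same sign in 15 of the 15 genes higher and 10 of the 11 lower. The median flank difference by UV was 26.2% and -16.6% in these, against -0.03% over all 319.

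**Figure D4:**
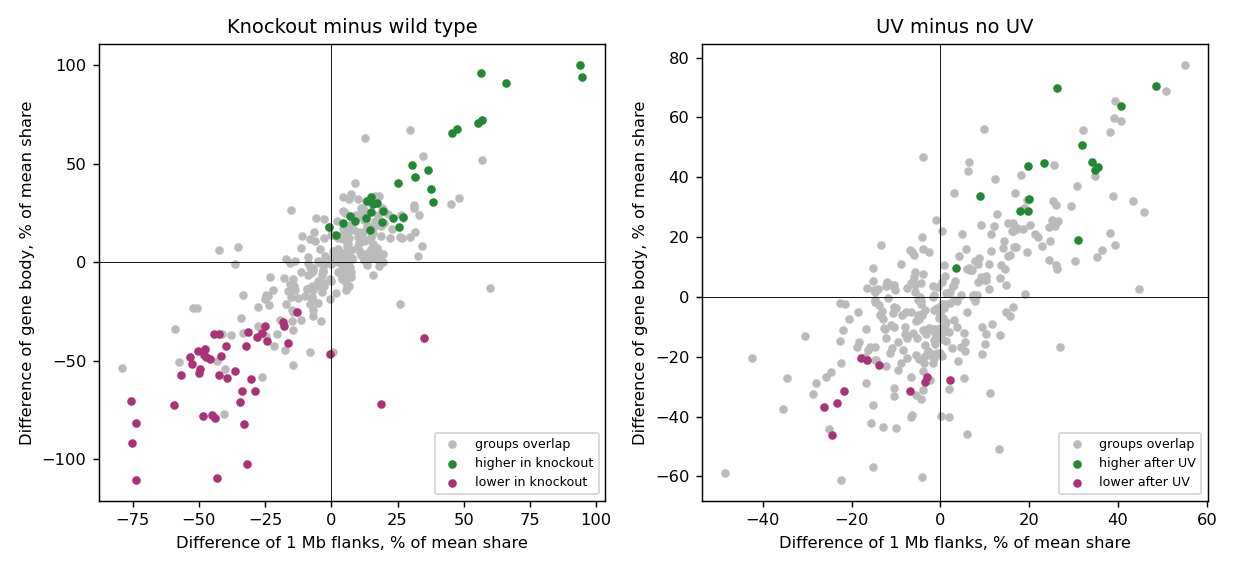
Difference in share of list of each of the 319 tested long genes against that of the 1 Mb on each side, in percent of the mean share, for ASH1L-/- minus WT on the left and UV minus no UV on the right. Green and purple points are genes whose 4 and 4 libraries did not overlap, grey points the others. The points follow a rising band in both panels (r = 0.833 and 0.718), and most purple points on the left have flanks below 0.

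In most genes called by genotype, the share of the list and the mean percentile of the regions moved in opposite directions. ERC1 regions had a mean percentile of 45.4 and 46.8 in unirradiated WT cells and 44.6 and 45.4 after UV, but 64.7 and 63.2 in unirradiated ASH1L-/- cells and 60.7 and 71.7 after UV. ANK2, which had more regions in ASH1L-/- cells, had means of 52.1 and 51.1 in unirradiated WT cells and 60.1 and 49.9 after UV, and 36.9 and 41.1 in unirradiated ASH1L-/- cells and 35.8 and 41.2 after UV. Neither gene's genotypes overlapped. Of the 45 genes lower in share, 42 moved up in mean percentile, with a median change of 8.62 over the 45. Of the 31 genes higher in share 27 moved down. Over all 319 tested long genes the median change by genotype was 0.812, and opposite moves were not counted there. Both measures come from the same regions and are not independent, so these counts are a description only.

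By mean percentile alone, 23 of the 319 long genes were higher in ASH1L-/- cells, 7.21% against a background of 2.45%, and 10 were lower, 3.13% against 2.37%. After UV, 14 were higher, 4.39% against 2.71%, and 4 lower, 1.25% against 2.71%. DSCAM, which had more regions after UV, was one of the 4, with means of 80.7 and 69.2 in unirradiated WT cells and 56.4 and 53.4 after UV, and 69.3 and 74.8 in unirradiated ASH1L-/- cells and 62.3 and 62.2 after UV.

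Genes were also grouped by what their products do, and the calls of each list are read against the shares of all 4177 genes tested, which were 3.02% higher and 3.14% lower after UV and 4.79% higher and 6.87% lower in ASH1L-/- cells, and against those of the 319 long genes, which were 4.70%, 3.45%, 9.72% and 14.1% in the same order. Of 60 tested genes of neuronal adhesion and the synapse, 4 were higher and 1 lower after UV, and 4 were higher and 5 lower in ASH1L-/- cells, with a median of 3.50 regions per 100 kb. By genotype these were 6.67% and 8.33% of the list, below the shares of all long genes. PTPRN2, a phosphatase-like protein of secretory vesicles, had 68 to 80 regions in WT libraries and 120 to 191 in ASH1L-/- libraries, whereas NRXN3, the neurexin-3 gene, had 93 to 150 and 70 to 119 and was lower in ASH1L-/- cells as a share of the list. DLG2, a synaptic scaffold gene with 76 to 212 regions per library, was called in neither comparison.

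Of 25 tested genes at common fragile sites, 0 were higher and 1, CTNNA3, lower after UV, while 4 were higher and 4 lower in ASH1L-/- cells, 16.0% each, against 9.72% and 14.1% of all long genes. The higher ones included RORA, MACROD2 and PARD3B and the lower ones WWOX, ESRRG and IMMP2L. WWOX, an oxidoreductase gene at the fragile site FRA16D, had 70 and 80 regions in unirradiated WT cells and 50 and 39 after UV, and 35 and 30 in unirradiated ASH1L-/- cells and 36 and 35 after UV, 1.83-fold lower in share in ASH1L-/- cells. FHIT at the fragile site FRA3B had 21 to 36 regions in WT and 26 to 38 in ASH1L-/- libraries and was not called.

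Of 32 tested genes of the cytoskeleton, junctions and trafficking, 10 were lower and 4 higher in ASH1L-/- cells, or 31.3% and 12.5%, against 14.1% and 9.72% of all long genes and 6.87% and 4.79% of all genes tested. After UV 0 were higher and 2 lower. Not all of the 10 act in these processes. GPC5, GPC6 and HS6ST3 belong to heparan sulfate proteoglycans and lie on chromosome 13, as does the myosin gene MYO16, and IMMP2L encodes a mitochondrial peptidase. UTRN and SYNE1, which tie the membrane and the nucleus to actin, had 21 to 34 and 23 to 29 regions in WT libraries and 9 to 18 and 12 to 19 in ASH1L-/- libraries.

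Of 21 tested kinase and phosphatase genes, 1 was higher and 1 lower after UV (PTPRD and PTPRM), and 1 was higher and 3 lower in ASH1L-/- cells (PPP2R2B against PDE10A, DGKB and CDK14). Of 21 genes of transcription factors and chromatin, 1 was higher after UV, FOXP1, and 0 were lower, and 2 were higher (RORA and NFIA) and 3 lower (ZFHX3, HDAC9 and ESRRG) in ASH1L-/- cells. ZFHX3, a homeobox factor, had 67 to 86 regions in WT and 36 to 54 in ASH1L-/- libraries. RUNX1, which has the most regions of this list, had 100 to 144 per library and was not called.

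Only 1 of 19 listed genes of DNA repair and the damage checkpoint exceeded 500 kb. This was RAD51B, which acts in repair by homologous recombination, with 11.4 regions per 100 kb. It had 132 and 121 regions in unirradiated WT cells and 111 and 106 after UV, and 113 and 81 in unirradiated ASH1L-/- cells and 67 and 89 after UV. As a share of the list it was 1.44-fold lower in ASH1L-/- cells, with no overlap of the genotypes, and its flanks were lower too.

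The members fell into 41301 union sites. Most were seen once, with 64.5% in 1 library, and 7.97% were seen in all 8, against 11.01% of all 547779 union sites. The 3293 sites in all 8 libraries ranked high, with a median percentile of 79.9 against 25.2 for sites of 1 library. RUNX1 held the most of them, 59, followed by RBFOX1 with 42 and LRMDA with 39. Of these sites 244 lay within 1 kb of an annotated TSS, and the 4 with the highest percentiles were at internal or nearby starts of BBS9, ALDH1A2, SYNE1 and NRXN3.

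Sites that separated UV from no UV had a share near the background. Gained sites made up 0.620% of member sites against 0.686% of all sites, and the 45 lost sites made up 0.109% against 0.0969%. Lost sites numbered 27 with a q-value limit of 0.05, 28 with lists cut to equal length and 20 where regions had to overlap the site by at least 50%. Gained sites lay in 166 genes, lost ones in 43, and 7 gained and 0 lost sites were within 1 kb of a TSS. NRG1, the neuregulin gene, held the most gained sites, 5.

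The strongest gained site was in FHIT, 316 kb from its start at chr3:60935640-60936143, with fold enrichments of 6.23 and 12.8 in irradiated WT cells and 15.7 and 14.7 in irradiated ASH1L-/- cells and no region in the 4 unirradiated libraries. The CNTN4 site at chr3:2949937-2950588, 851 kb into the gene, had 8.78 and 11.2 in irradiated WT cells and 11.2 and 8.99 in irradiated ASH1L-/- cells. The ROBO1 site at chr3:79367015-79367544 had 8.50 and 13.04, and 7.25 and 7.34, and a GMDS site 9.07 and 10.9, and 11.6 and 8.91.

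Among lost sites, that of SEMA3A, a guidance cue gene, at chr7:84364655-84365313 had fold enrichments of 4.52 and 9.49 in unirradiated WT cells and 4.51 and 5.86 in unirradiated ASH1L-/- cells. The PRKG1 site at chr10:52249679-52250387, 1259 kb into the gene of a cGMP-dependent kinase, had 2.90 and 6.04, and 5.97 and 5.60. None of these had a region after UV. SEMA6D and LRRTM4 held the other two lost sites of highest rank, and all 4 were intronic.

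Gained and lost sites differed in sequence. A match to AP-1, as in the CNTN4 and ROBO1 windows printed above, occurred within the 201 bases around the summit of 95 gained member sites, 37.1% (exact binomial 95% interval 31.2% to 43.3%, counting error only), and of 2 of 45 lost sites, 4.44% (0.543% to 15.1%). All union sites had 11.1%, all member sites 12.1%, and member sites in 4 libraries of any other combination 18.0%. Distal member sites in all 8 libraries, to which the CAMTA1 and OPCML windows belong, had 31.7%. A match to RUNX, as in the SEMA3A and PRKG1 windows, occurred in 16 of 45 lost sites, 35.6% (21.9% to 51.2%), and in 10.5% of gained sites (7.07% to 14.97%), against 16.3% of all sites. Not every top-ranked window held these motifs. Among lost sites, SEMA6D had a TEAD match only and LRRTM4 no match. Among gained sites, FHIT had a TEAD match only and GMDS a RUNX match only.

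TEAD matches occurred in 28.9% of lost sites (16.4% to 44.3%) and 14.1% of gained sites (10.0% to 18.9%), against 13.2% of all sites. All 3 motifs were searched on both strands. The same shares over gained and lost sites of the whole genome were 33.1% and 6.40% for AP-1 and 13.6% and 30.1% for RUNX, so the pattern was not particular to long genes. A match describes letters in a window and not a bound factor.

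**Figure D5:**
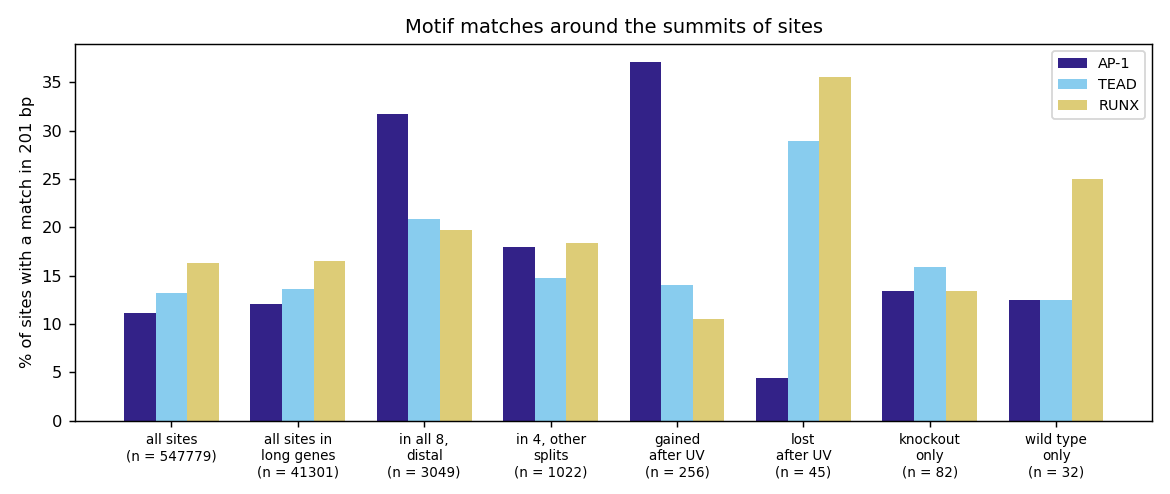
Percentage of sites with at least 1 match to AP-1, TEAD or RUNX in the 201 bases around the summit, for all union sites and for groups of sites in long genes, with the number of sites under each group. AP-1 is highest in gained sites (37.1%) and distal sites of all 8 libraries (31.7%), and RUNX in lost sites (35.6%).

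Sites that separated the genotypes had a share near the background too. Sites of the 4 ASH1L-/- libraries alone numbered 82, 0.199% of member sites against 0.187% of all, and sites of the 4 WT libraries alone numbered 32, 0.0775% against 0.0769%. With an overlap of at least 50% the former numbered 47. The KIF26B site, chr1:245345088-245345929 in the gene of a kinesin-like protein, had fold enrichments of 6.87 and 9.92 in unirradiated and 10.1 and 10.5 in irradiated ASH1L-/- cells. The GPC6 site, chr13:93963524-93964519, had 8.39 and 9.54 in unirradiated and 8.62 and 12.8 in irradiated WT cells. GPC6 was also lower in share in ASH1L-/- cells. The printed KIF26B and GPC6 windows held no match. Of the other top-ranked sites, PLCB1 in ASH1L-/- cells and DMD in WT cells had an AP-1 match. ERC1 in WT cells had a RUNX match, and GALNT13 in ASH1L-/- cells had none. AP-1 matches occurred in 11 of the 82 sites of ASH1L-/- cells, 13.4% (6.89% to 22.7%), and 4 of the 32 of WT cells, 12.5% (3.51% to 29.0%). All member sites had 12.1%, and these intervals are too wide to compare the genotypes. Over the whole genome, AP-1 matches occurred in 8.71% of 1022 sites of ASH1L-/- cells alone and 19.95% of 421 sites of WT cells alone. In neither set of member sites was a motif as frequent as AP-1 in gained sites.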

How the data were processed

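ATAC-seq peak lists of 8 libraries were used, 2 in each of 4 groups, with groups and replicate numbers from the titles. Per the study's methods and the submitters' processing notes, the authors trimmed adapters (cutadapt 1.9.1), aligned paired reads to hg38 without chromosome Y (Bowtie2 2.4.5), filtered alignments (SAMtools 1.7, bedtools 2.29.2, Picard) and called peaks per library (MACS2 2.2.7.1), without pooling replicates. The deposited lists hold a fold enrichment, which is a ratio of summit pileup to local background with 1 added to both. They also hold the authors' −log10 p-value, −log10 q-value and a score, which was not used. No value was normalised between libraries, and the lists reach down to a p-value threshold of 0.01. They hold no read counts, so depth is relative. It is the lowest background pileup solved from fold enrichment and p-value over sampled records of a list.

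Records with the same interval were joined into 1 region with its highest values. Genes, exons and TSS came from GENCODE release 44. Midpoints placed regions. Union sites joined regions overlapping by at least 1 bp, and motif windows of 201 bp were centred on the summit of the strongest region. The 5 measures (log2 number, share of list, log2 density ratio to genes of 100 to 500 kb, median percentile, median relative position) were tested for UV, genotype and UV by genotype with exact permutation tests over libraries, with Benjamini-Hochberg adjustment over 15 tests. An exact permutation test of 2 against 2 libraries cannot go below p = 0.333, so those differences were not tested. Calls of genes and sites rest on 4 against 4 libraries without overlap and carry no p-value. Scripts were tested on simulated data. Python 3.11.15, numpy 2.4.6, scipy 1.17.1, pandas 2.3.3 and pysam 0.24.0 were used.

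The members and gene lists were chosen with earlier results of these data known. Named genes were the 6 densest and 4 sparsest long genes, the first 5 called per direction and comparison by difference relative to the mean share, up to 4 per list with most members, and the sites of highest mean percentile in each class. Other list members were named because they were called, and RUNX1, RBFOX1, LRMDA and NRG1 for their number of sites, after their values were seen. Some genes that meet these rules are not reported here. The alternatives tried were a q-value limit of 0.05, equal list lengths, summits for midpoints, other length and distance limits, no chromosomes 4 and 13, no regions near a TSS, ranking by −log10 p, other minimum numbers and scaling, a stricter overlap, a replicate block and leaving out each library. Mean percentiles, top quartile shares and flanks were added after seeing the data.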

Additional observations from a re-analysis of the deposited data

Results flagged for a closer look

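Among 100 groups of 4 libraries examined for the 5 measures and the named genes, 2 held a library far from the other 3, both for named genes. Chance sets apart about 1 in 20 such groups. EXOC4 had 20.4 regions per 100000 of the list in replicate 1 of the unirradiated ASH1L-/- cells, the deepest library, against 11.4 to 12.04 in the other 3 ASH1L-/- libraries. HS6ST3 had 3.01 per 100000 in replicate 2 of the irradiated ASH1L-/- cells, from 6 regions, against 0.91 to 1.26 in the other 3, from 2 regions each. Both genes kept their order of the genotypes without that library.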

How the results depend on the processing

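The share of list by UV, the density ratio to shorter genes and the lower share near a TSS neither turned nor crossed the threshold under every alternative setting that used all 8 libraries. With a q-value limit of 0.05 the UV difference of log2 number turned to 0.039, that of relative position to -0.0012 and the UV by genotype contrast of relative position to 0.00014. The UV by genotype contrast of the median percentile turned to 0.745 with that limit, 0.632 with equal list lengths, 0.957 when ranked by −log10 p and 0.440 as a mean percentile, and the excess over shorter genes to -0.014, -0.146 and -0.796 under the first 3. The UV difference of position turned to -0.00063 with equal list lengths and -0.00067 in genes over 1000 kb. None of these passed before or after. In genes over 1000 kb the UV by genotype contrast of position was -0.0105, ranking by −log10 p gave a genotype difference in percentile of 1.54, and the mean percentile gave a UV difference of 1.62 (added after seeing the data), each at p = 0.0286, the smallest the exact permutation test allows, and not adjusted. Lost sites fell to 27 with the q-value limit, 28 with equal lengths and 20 with a stricter overlap, which left 47 sites of ASH1L-/- cells alone. The causes were not tested.

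Without 1 library, the genotype difference of log2 number ranged from -0.0012 (without replicate 1 of the ASH1L-/- cells lacking UV) to 0.19, and the UV by genotype contrast of the share from -0.242 to 0.0058 (without replicate 1 of the irradiated WT cells). The density ratio ranged from -0.042 to 6.6e-05 for UV and from -0.034 to 0.0082 for UV by genotype, positive in both without replicate 1 of the irradiated WT cells. The median percentile ranged from -0.0055 to 1.05 for UV and from -0.403 to 0.650 for genotype, negative in both without replicate 2 of the WT cells lacking UV, and the position by UV from -0.0020 to 0.0026. Calls need fewer libraries then and rise by construction, to 15 to 35 genes higher and 14 to 28 lower after UV, 296 to 461 gained and 48 to 153 lost sites, and 96 to 203 and 38 to 88 sites of ASH1L-/- and of WT cells alone. The highest of these came without replicate 1 of the irradiated WT cells (35 genes, 461 sites), replicate 2 of the irradiated ASH1L-/- cells (28 genes), replicate 1 of the WT cells lacking UV (153 and 88 sites) and replicate 2 of the ASH1L-/- cells lacking UV (203 sites). With the q-value limit, 36 of the 45 genes lower and 25 of the 31 higher in ASH1L-/- cells were called again, and 6 of the 15 higher and 3 of the 11 lower after UV.

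With the replicate number as a block, permutations within numbers gave p = 0.111 for the share by UV (difference -0.346, smallest attainable p 0.0556), a design that cannot reach 0.05. Deviations of same-numbered samples correlated between -0.159 and 0.213 over 4177 genes. Being mixed in sign, these values do not settle whether the numbers pair the samples. Depth, 1.39 to 5.87 reads of background pileup, limits what a missing region means.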
